A study of Homo sapiens with 4 samples.

Results

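The clustered protocadherin genes are 53 protein-coding genes on chromosome 5 whose symbols start with PCDHA, PCDHB or PCDHG, of 19974 protein-coding genes on chromosomes 1 to 22 and X. Membership goes by symbol and chromosome. The alpha family had 15 members (GRCh38, chromosome 5, 140786140 to 141012347), the beta family had 16 (141051374 to 141249365) and the gamma family had 22 (141330514 to 141512975). Histone modifications had been mapped by chromatin immunoprecipitation and sequencing (ChIP-seq) in MCF10A, a human breast epithelial cell line that is immortal but forms no tumours, grown in MEGM medium with 100 ng/ml cholera toxin. The 3 peak lists came from 1 library each for H3K4me3 (a Millipore antibody), which is found at promoters that are active or poised, H3K27me3 (Abcam), set by Polycomb complexes at repressed genes, and H3K79me2 (Abcam), which follows transcription into the first part of genes. The labels also list 1 library of input DNA, for which no peak list was analysed here. There was no treatment contrast and no replicate, so the comparisons are among members, families and marks, and no value carries an error.

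Clustered protocadherins are cell adhesion proteins of the cadherin superfamily, best known from neurons, where single cells use different combinations of them and matching combinations on neighbouring cells are recognised. In the alpha and gamma families each member has its own promoter and a large first exon, which is spliced to small constant exons at the 3′ end shared by the whole family, so all 15 alpha records ended at 1 coordinate and all 22 gamma records at another. Beta genes have no constant exons, and their 16 records had 16 distinct ends. The promoters of most members hold a conserved element with the core CGCT, next to binding sites for CTCF, which together with cohesin joins promoters to distant enhancers. The C-type members PCDHAC1, PCDHAC2, PCDHGC3, PCDHGC4 and PCDHGC5 lie last in their arrays and are known in neurons for more uniform use than the others. Because each alpha and gamma record runs across all later members, every mark was read at the record's own start, its lower coordinate, and the shared 3′ part was read apart.

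The 120 bases before the record start are printed here for 14 members, chosen to show family resemblance and members with strong, weak or no H3K4me3. They were taken from RefSeq promoters of GRCh38.p14, which had an entry for 47 of the 53 members, all on the plus strand (PCDHA3, PCDHA13, PCDHB6, PCDHB11, PCDHGA12 and PCDHGC5 had none). Capitals mark only the word of the member's own family, on the printed strand: GATGTCGCT in alpha, GGTGGCGCT in beta and GNCGCTGT in gamma. The words were chosen after the promoters had been read.
PCDHA2, chr5:140794732-140794851, plus strand: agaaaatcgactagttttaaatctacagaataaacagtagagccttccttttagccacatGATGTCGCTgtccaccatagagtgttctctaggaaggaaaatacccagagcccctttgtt
PCDHA4, chr5:140806948-140807067, plus strand: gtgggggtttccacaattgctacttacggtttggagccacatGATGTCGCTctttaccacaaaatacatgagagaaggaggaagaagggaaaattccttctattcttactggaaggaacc
PCDHA9, chr5:140848262-140848381, plus strand: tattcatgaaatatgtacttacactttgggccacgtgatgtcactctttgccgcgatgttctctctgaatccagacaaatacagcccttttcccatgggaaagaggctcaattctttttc
PCDHA12, chr5:140875188-140875307, plus strand: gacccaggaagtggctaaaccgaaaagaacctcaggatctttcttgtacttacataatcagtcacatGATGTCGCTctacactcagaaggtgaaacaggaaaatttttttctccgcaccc
PCDHAC1, chr5:140926179-140926298, plus strand: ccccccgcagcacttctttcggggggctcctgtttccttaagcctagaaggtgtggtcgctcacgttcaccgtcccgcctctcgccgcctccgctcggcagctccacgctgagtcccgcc
PCDHAC2, chr5:140966356-140966475, plus strand: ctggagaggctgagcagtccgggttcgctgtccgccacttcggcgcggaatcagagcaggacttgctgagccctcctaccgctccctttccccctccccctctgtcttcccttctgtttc
PCDHB3, chr5:141100353-141100472, plus strand: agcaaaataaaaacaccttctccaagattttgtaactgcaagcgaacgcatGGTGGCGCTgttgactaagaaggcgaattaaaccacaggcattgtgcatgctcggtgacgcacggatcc
PCDHB7, chr5:141172524-141172643, plus strand: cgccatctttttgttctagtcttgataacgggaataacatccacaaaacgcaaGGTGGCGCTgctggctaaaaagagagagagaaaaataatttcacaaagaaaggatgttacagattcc
PCDHB14, chr5:141223223-141223342, plus strand: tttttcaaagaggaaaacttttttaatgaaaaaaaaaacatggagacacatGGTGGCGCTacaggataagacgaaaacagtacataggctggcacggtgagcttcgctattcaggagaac
PCDHGA7, chr5:141382622-141382741, plus strand: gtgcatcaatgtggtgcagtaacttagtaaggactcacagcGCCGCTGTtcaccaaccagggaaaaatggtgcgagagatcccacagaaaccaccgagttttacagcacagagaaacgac
PCDHGB4, chr5:141387578-141387697, plus strand: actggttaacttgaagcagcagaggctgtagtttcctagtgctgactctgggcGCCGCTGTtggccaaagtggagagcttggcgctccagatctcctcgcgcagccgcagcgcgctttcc
PCDHGA11, chr5:141420931-141421050, plus strand: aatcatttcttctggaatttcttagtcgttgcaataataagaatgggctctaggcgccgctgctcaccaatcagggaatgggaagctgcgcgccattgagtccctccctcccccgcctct
PCDHGC3, chr5:141475846-141475965, plus strand: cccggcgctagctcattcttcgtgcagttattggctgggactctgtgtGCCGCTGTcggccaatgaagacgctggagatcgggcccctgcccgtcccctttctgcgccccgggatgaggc
PCDHGC4, chr5:141484910-141485029, plus strand: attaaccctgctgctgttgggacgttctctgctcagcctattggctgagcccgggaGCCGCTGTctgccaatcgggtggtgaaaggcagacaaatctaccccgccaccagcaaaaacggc
Each word holds the core CGCT. GATGTCGCT stood in 9 of 11 promoters of PCDHA1 to PCDHA12, against 0.101% of 15813 protein-coding promoters searched on the gene's own strand over the same 300 bases. GGTGGCGCT stood in 13 of 14 beta promoters (0.411% of all), with PCDHB1 as the exception. GNCGCTGT stood in 15 of 18 promoters of the gamma A and gamma B members (3.10% of all), without PCDHGB3, PCDHGB7 and PCDHGA11. It is not particular to gamma: it also stood in 5 of 11 promoters of PCDHA1 to PCDHA12 and in 1 of 14 beta promoters, PCDHB3. There it overlapped the word of the member's own family, as in the printed PCDHA2 and PCDHB3. The shorter core CGCT alone stood on either strand in 46 of 47 members, PCDHA9 being the one without, but also in 81.0% of all promoters. TATAAA stood on either strand in 6 of 47 members (12.8%) and in 9.75% of all promoters. An H3K4me3 peak lay at the start of all 9 alpha members with the alpha word, of 11 of 13 beta members with the beta word and of 10 of 15 gamma A and gamma B members with the gamma word. Over all protein-coding genes, 70.7% had a base covered by H3K4me3 at their start. Among members without the word of their family, PCDHA9, PCDHA11, PCDHB1, PCDHGB3 and PCDHGB7 had a peak as well, and PCDHGA11 had none. The word and the peak thus did not go together in every member. These matches describe the letters of this window and nothing about the factors that bind there.

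On chromosomes 1 to 22 and X the lists held 67781 H3K4me3, 393202 H3K27me3 and 112731 H3K79me2 peaks, and read depth is unknown from them. A peak's fold is the authors' enrichment over the background of the peak caller, and its −log10 q is the caller's. The labelled line, MCF10A, was checked on markers. Of 9 basal epithelial genes (among them KRT5, ITGB4 and EGFR), 9 had H3K4me3 and H3K79me2. Of 6 immune, endothelial and liver genes, 0 had H3K4me3 and 1, PECAM1, had H3K79me2. Of the 4 neuronal markers RBFOX3, SNAP25, SYP and TUBB3, 4 had H3K4me3, 1, TUBB3, had H3K79me2 and 1, SNAP25, had H3K27me3. H3K4me3 alone thus did not set basal markers apart from neuronal ones. By the same rule 67.8% of all genes had H3K4me3 and 52.2% had H3K79me2 at their own start. Markers without a strand in the reference were read at either end. In a bulk population, a mark on few cells and a weak mark on all of them cannot be told apart.

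H3K4me3 peaks lay at most member starts, but they were small. A peak reached into the window within 1000 bp of the own start in 42 of 53 members (79.2%), against 70.7% of 15813 protein-coding genes with a known strand, counted at their own record start. With the rule used for calls, at least 25% of that window covered, 26 members (49.1%) had H3K4me3, against 67.8% of all genes. The peak with the highest fold at each start had a median of 4.14-fold and 666 bp over the 42 members, against 16-fold and 3455 bp over 11141 other genes with a peak at their start. Of the 42, 29 peaks (69.0%) were 1000 bp or narrower, where 7.07% of the other genes' peaks were. Peaks of 10-fold or more stood at 2 members, PCDHAC2 and PCDHGC3, where 83.8% of the other genes had one. The count rested on the width of the window: it was 39 within 500 bp (73.6%, against 67.8% of all genes), 37 in the 1000 bp after the start (69.8%, against 67.7%) and 13 within 2000 bp (24.5%, against 65.8%). With 50% of the window covered it was 12 (22.6%, against 63.5%). Stricter peaks gave 25 members at a q of 0.05 or below (66.8% of all genes), 17 at a −log10 q of at least 5 (64.6%) and 13 at a fold of at least 5 (63.9%). Of the 26 members called, 3 also had H3K79me2 (11.5%), against 75.4% of all genes with H3K4me3, and 0 had H3K27me3, against 4.75%. The commonest states were no call, in 27 members (50.9%, against 27.8% of all genes), and H3K4me3 alone, in 23 members (43.4%, against 13.6%).

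**Figure D1:**
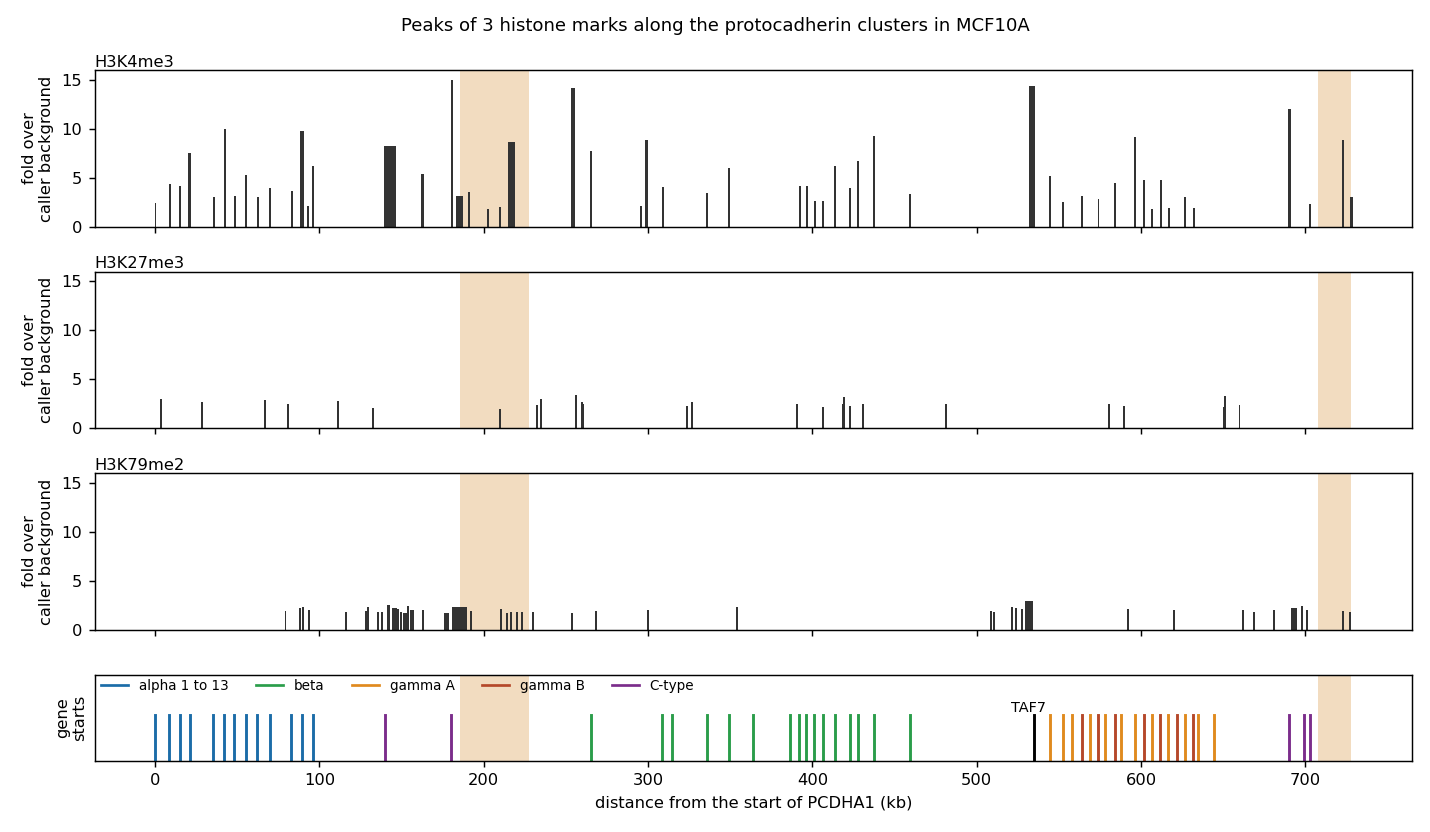
Peaks of H3K4me3, H3K27me3 and H3K79me2 by distance from the start of PCDHA1 in kb, with bar height as fold over the caller's background, and below them the starts of the 53 members and of TAF7, coloured by type. Narrow peaks are drawn wider than they are, and shading marks the shared 3′ parts of alpha and gamma. H3K4me3 reaches 15.0-fold and follows the gene starts, and H3K27me3 stays at or below 3.41-fold. H3K79me2 gathers to the right of the starts of PCDHAC1, PCDHAC2 and PCDHGC3 and to the left of that of TAF7, which lies on the minus strand. Shorter H3K79me2 peaks also lie to the left of the starts of PCDHAC1 and PCDHAC2.

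**Figure D2:**
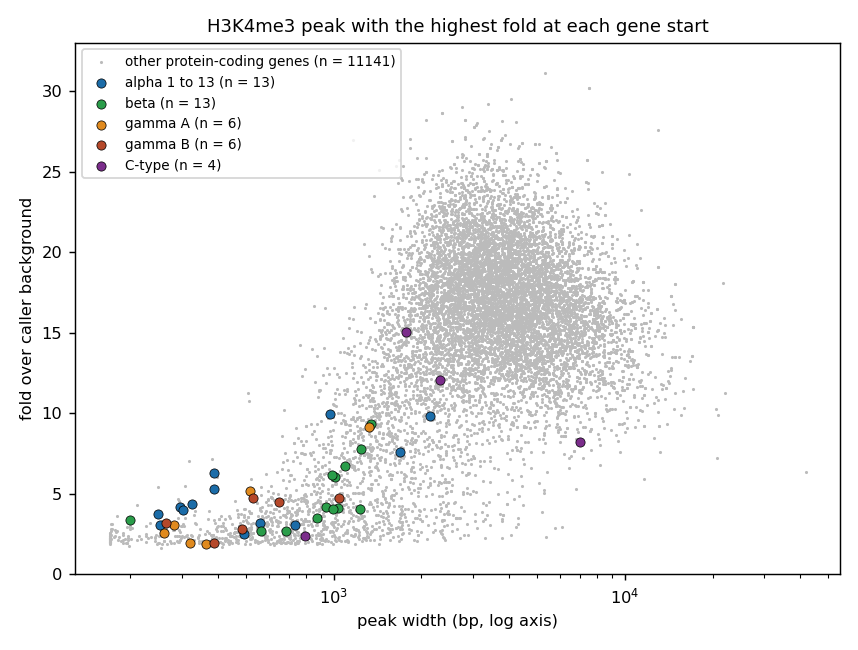
Fold over the caller's background against width in bp (log axis) of the H3K4me3 peak with the highest fold at each gene start, for 11141 other protein-coding genes (grey) and 42 members coloured by type. Most members sit at the lower left among low, narrow peaks, and PCDHAC2 at 15.0-fold and PCDHGC3 at 12.0-fold lie highest.

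In the alpha family, all of PCDHA1 to PCDHA13 had a peak at their start, and 5 of these 13 were called. Over all genes, 70.7% had a covered base at their start and 67.8% were called. The call rested on the window: with the C-type genes, 7 of 15 alpha members were called within 1000 bp and 13 within 500 bp. PCDHA12 had the widest cover, 99.5% of its window from a peak of 2140 bp and 9.81-fold, and PCDHA4 followed with 84.0% from a peak of 1681 bp and 7.58-fold. PCDHA6 had the highest fold of the 13, 9.96-fold over 968 bp and 48.4% of the window. PCDHA9 (36.6%, 3.03-fold) and PCDHA7 (27.9%, 3.14-fold) were called from weaker peaks. These 5 genes are not neighbours in 1 block: uncalled members lie between PCDHA4, PCDHA6 and PCDHA9. The 8 others, PCDHA1, PCDHA2, PCDHA3, PCDHA5, PCDHA8, PCDHA10, PCDHA11 and PCDHA13, had 12.4% to 24.6% covered. Of these, PCDHA2 had 4.35-fold, PCDHA3 4.18-fold, PCDHA10 3.97-fold, PCDHA11 3.71-fold and PCDHA5 3.05-fold, over peaks of 248 to 325 bp. PCDHA1, nearest to the threshold at 24.6%, had 2.47-fold and a −log10 q of 0.804, a peak that does not reach a q of 0.05. PCDHA13 and PCDHA8 had higher folds than PCDHA7 and PCDHA9, 6.25 and 5.28, over peaks of 387 bp each, so the call depended on width and not on fold. The best peak of 12 of the 13 had a q of 0.05 or below.

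In the beta family 12 of 16 members were called, a share of 75% beside the 67.8% of all genes. PCDHB14 led with 67.0% of its window from a peak of 1340 bp and 9.32-fold. PCDHB1, the first beta gene, had 61.9% and 7.75-fold, PCDHB2 had 61.4% and 4.06-fold, and PCDHB13 had 54.4% and 6.69-fold. PCDHB5 (6.04-fold) and PCDHB11 (6.18-fold) had peaks of 1007 and 988 bp. The peaks of PCDHB4, PCDHB8, PCDHB16 and PCDHB12 had 3.49- to 4.15-fold over 874 to 1037 bp, and PCDHB9 and PCDHB10 were the weakest called, at 2.69- and 2.66-fold. The uncalled members were PCDHB15, with a peak of 200 bp and 3.36-fold over 9.99% of the window, and PCDHB3, PCDHB6 and PCDHB7, with no covered base. PCDHB3 and PCDHB7 had the beta word in the promoters printed above, as PCDHB14 did. Beta peaks were wider than those of PCDHA1 to PCDHA13 and alike in fold, with medians of 993 against 387 bp and 4.13- against 4.18-fold, with no test possible on 1 library.

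The gamma family had the smallest called share, 7 of 22 members (31.8%), beside 67.8% of all genes. At 8 members there was no peak at the start, where 70.7% of all genes had a covered base. Within 500 bp of the start 14 of the 22 were called, against 67.8% of all genes. Of the 12 gamma A members, 6 had a peak and 2 were called. PCDHGA7 stood out with 66.1% of its window from a peak of 1322 bp and 9.15-fold, and PCDHGA1, the first of the array, passed with 25.8% and 5.18-fold. PCDHGA8 and PCDHGA9 had peaks of 1.86- and 1.91-fold that do not reach a q of 0.05, and PCDHGA2 (2.55-fold) did not reach it either. PCDHGA10 had 3.02-fold over 282 bp. PCDHGA3, PCDHGA4, PCDHGA5, PCDHGA6, PCDHGA11 and PCDHGA12 had no covered base. Of the 7 gamma B members, 6 had a peak and 3 were called: PCDHGB5 with 52.2% and 4.75-fold, PCDHGB3 with 32.3% and 4.45-fold, and PCDHGB4 with 26.3% and 4.75-fold. PCDHGB2 lay just below the threshold at 24.2% and 2.79-fold, PCDHGB1 had 3.18-fold over 264 bp, PCDHGB7 had 1.92-fold with a −log10 q of 0.0934, and PCDHGB6 had no covered base. No gamma B peak reached 5-fold. Gamma A and gamma B genes are intermixed along the chromosome, and a called gene could lie beside an empty one, as PCDHGB3 (32.3%) beside PCDHGA6 (0%).

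The C-type members ranged from the highest H3K4me3 fold of all members to no peak. PCDHAC2 had 15.0-fold with a −log10 q of 63.1 over 1766 bp, the highest of all 53 members. PCDHGC3 had 12.0-fold with a −log10 q of 54.0 over 2310 bp, and PCDHAC1 had the widest peak of any member, 7015 bp at 8.23-fold. PCDHGC5 was called from a peak of 2.34-fold that does not reach a q of 0.05, lying mostly before its start (from -572 to 222 bp). PCDHGC4 had no H3K4me3 in its window, although its promoter holds the gamma word. PCDHAC1 lay below PCDHA6, PCDHA12, PCDHB14 and PCDHGA7 in fold.

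**Figure D3:**
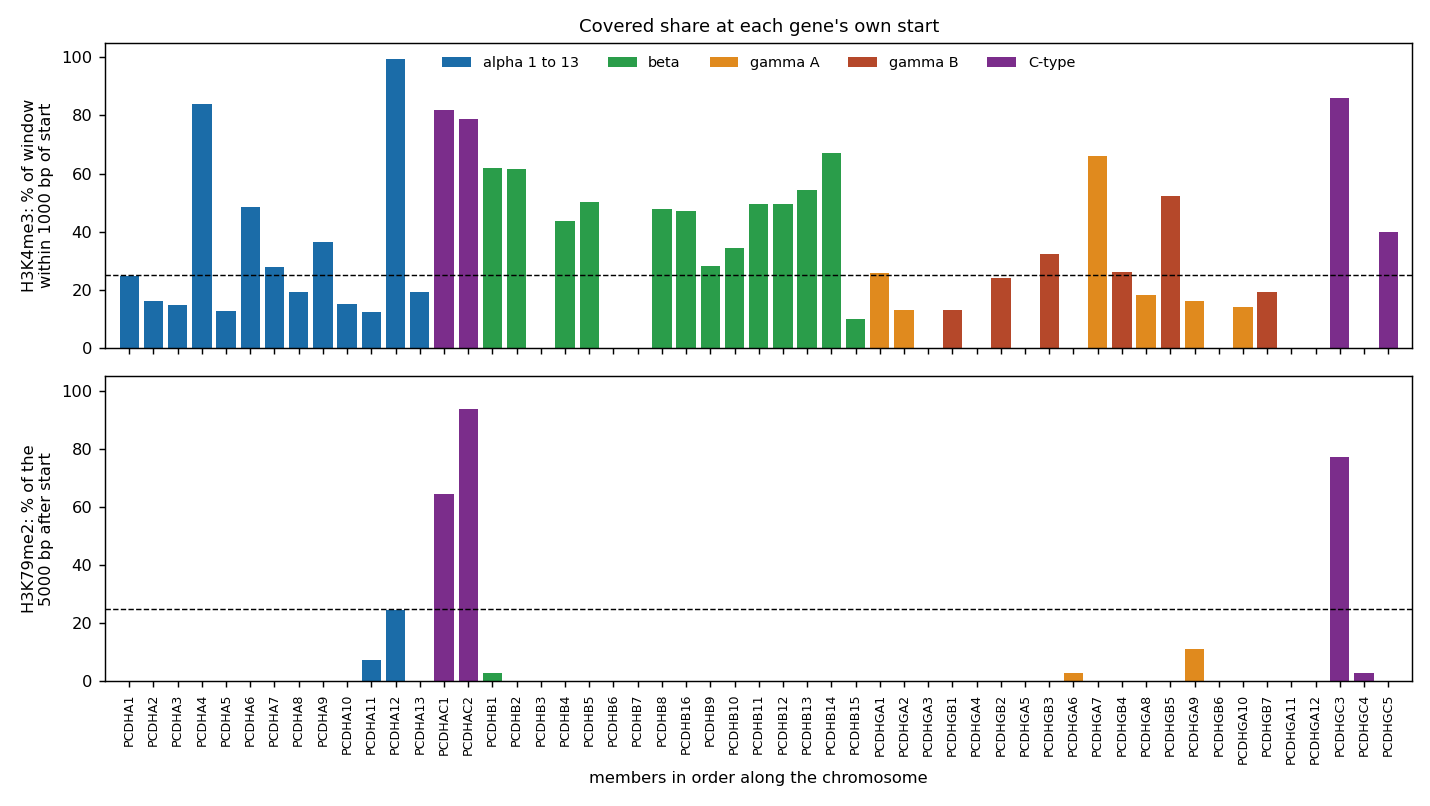
Covered share in percent at each member's own start, for H3K4me3 within 1000 bp of it (top) and for H3K79me2 over the 5000 bp after it, or the whole record if shorter (bottom), in order along the chromosome and coloured by type. The dashed line is the 25% needed for a call; 26 members pass it for H3K4me3 and PCDHAC1, PCDHAC2 and PCDHGC3 pass it for H3K79me2.

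Most H3K4me3 peaks spanned the start, and their place around it differed between types. Of the 42 peaks, 28 spanned the start, 14 began at or after it and 0 ended before it. Among the 13 members PCDHA1 to PCDHA13 the peaks began at a median of 140 bp after the start and ended at a median of 540 bp, and 7 of them did not reach back to the start. In the 300 to 400 bp after the start, 97.9% of bases were covered on average over the 13. Beta peaks ran from a median of -153 to 829 bp, with a maximum of 81.2% in the bin from 100 to 200 bp, and gamma A and gamma B reached at most 50% and 60.6%. The 4 C-type peaks began at -717 to -572 bp, and C-type cover stayed at its highest, 80%, from -500 to 200 bp. Of these C-type peaks that of PCDHGC5 alone lay mostly before the start, while that of PCDHAC1 ran to 6374 bp after it. Some peaks of other types lay mostly before the start: PCDHGB3 from -576 to 70 bp, PCDHGA7 from -755 to 566 bp and PCDHB1 from -671 to 566 bp. The first exons of a family are close copies of each other, and no source used here gives how reads matching several copies were handled. The presence, place and height of peaks inside these exons are therefore uncertain. The part that such reads play was not tested.

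**Figure D4:**
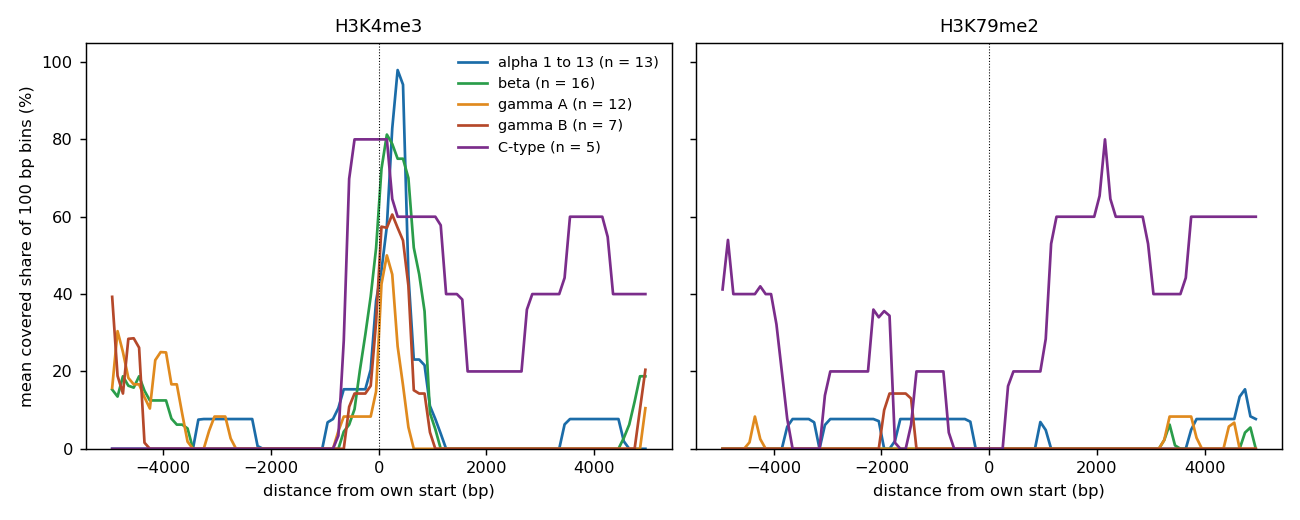
Mean covered share in percent of 100 bp bins by distance from the own start in bp, for H3K4me3 (left) and H3K79me2 (right), as 1 line per type with its number of members. For H3K4me3 the line of alpha 1 to 13 reaches 97.9% at 300 to 400 bp after the start, while for H3K79me2 the C-type line alone rises above 20%; starts lie close together, so the outer bins hold neighbouring members.

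H3K79me2 was called at 3 members, all of C-type. These were 5.66% of the 53, against 52.2% of all genes. At PCDHAC2 a peak of 9386 bp, at 140966795 to 140976180 and 2.3-fold, covered 93.6% of the 5000 bp after the start. PCDHGC3 had 77.3%, from a peak of 4168 bp and 2.26-fold. PCDHAC1 had 64.6% from 2 peaks of up to 2.52-fold, and 11 peaks together covered 29.5% of the 40.2 kb between its start and that of PCDHAC2. These folds were above the median of 2.13 over all H3K79me2 peaks in the list and far below its highest, 7.47. TAF7, the gene of a general transcription factor subunit between beta and gamma, had 2.99-fold over 91.5%. PCDHA12, the alpha member with the widest H3K4me3 cover, came next with 24.5% and was just below the threshold. PCDHGA9 (11.2%), PCDHA11 (7.5%), PCDHB1, PCDHGA6 and PCDHGC4 (3% each) had small pieces, so 9 of 53 members had any covered base, against 59.2% of all genes. The starts of neighbours lie a median of 6349 bp apart, so a window of 5000 bp can hold signal near the next start, as that of PCDHA11 holds a peak beginning at 4625 bp that is also within 1000 bp of the start of PCDHA12. The first H3K79me2 peak of the alpha array lay 79 kb after the start of PCDHA1. By segment, H3K79me2 peaks covered 12.2% of the alpha variable part, 18.1% of the alpha shared part, 0.230% of the beta cluster, 5.20% of the gamma variable part and 3.84% of the gamma shared part, beside 10.3% of all chromosomes together. The cover of the alpha shared part includes the tail of the PCDHAC2 peak. At a q of 0.05 or below, PCDHAC1 alone kept a call, where 45% of all genes had one. With at least 50% covered 3 members were called (46.7% of all genes), over 2000 bp inward 3 (52.6%) and within 1000 bp on either side of the start 2 (47.4%). With a −log10 q of at least 5, or a fold of at least 5, 0 of 53 were called, against 12.7% and 3.62% of all genes.

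The clusters were poor in H3K27me3. It was called at 0 of 53 starts, where 6.49% of all genes had it, and a covered base was found at 3, PCDHB12 (13.1%, 2.31-fold), PCDHB10 (11%, 2.16-fold) and PCDHB8 (8.50%, 2.50-fold), against 17% of all genes. Over the 728 kb from the start of PCDHA1 to 1000 bp past the common gamma end, 26 H3K27me3 peaks covered 0.769% of bases, where the mark covered 3.58% of all chromosomes. The density was 3.57 peaks per 100 kb, against 13 over all chromosomes. The highest of the 26 had 3.41-fold and lay between alpha and beta at 141042258 to 141042443, and 3 of the 26 had a q of 0.05 or below. The longest had 504 bp, and joining peaks across gaps of up to 3000 bp left 0 of 53 called, against 11.6% of all genes. Calls were 0 of 53 too with a q of 0.05 or below (3.94% of all genes), a −log10 q of at least 5 (0.879%), a fold of at least 5 (1.21%) and 50% covered (3.02%). Over the same stretch H3K4me3 covered 8.77%, against 3.29% of all chromosomes, and H3K79me2 covered 6.89%, against 10.3%.

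The shared 3′ parts held H3K4me3 away from any own start. The alpha part, from 5000 bp after the start of PCDHAC2 to 1000 bp past the common end (140971476 to 141013347, 41.9 kb), had 20.5% of its bases in H3K4me3 peaks, 18.1% in H3K79me2 and 0.418% in H3K27me3. Its strongest H3K4me3 peak, of 3725 bp and 8.67-fold, lay at 141001135 to 141004859, inside the record of the alpha constant region, PCDHACT. A weaker one of 4509 bp and 3.15-fold began 2720 bp after the start of PCDHAC2 and reached into the shared part, under the H3K79me2 peak of that gene. That H3K79me2 peak, of 9386 bp, began 319 bp after the start of PCDHAC2 and ended at 140976180, so its tail counts in the 18.1%. The other H3K79me2 peaks of the alpha part had 150 to 927 bp. The gamma part (141494081 to 141513975, 19.9 kb) had 10.3% in H3K4me3, 3.84% in H3K79me2 and 0% in H3K27me3. Its main H3K4me3 peak, of 1232 bp and 8.86-fold, lay at 141508462 to 141509693. A second, of 1677 bp and 3.07-fold, began just past the common gamma end and covered 41.0% of the window around it, while 0% of the window around the common alpha end was covered. A rule that takes either end of a record therefore calls H3K4me3 at 22 of 22 gamma members from that single peak, where the own starts give 7. Over all families that rule gives 41 of 53, against 67.9% of 19974 protein-coding genes. All the H3K79me2 peaks of the shared parts had a q above 0.05.

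Of the 55 H3K4me3 peaks along the locus, 42 lay at a member start (76.4%) and 13 lay elsewhere. The strongest of the 13 was that of TAF7, 3687 bp and 14.4-fold. The next, of 2650 bp and 14.2-fold with a −log10 q of 67.9, lay at 141038919 to 141041568 between alpha and beta, 72443 bp after the start of PCDHAC2, and overlapped no gene record. A peak of 1314 bp and 8.84-fold lay at 141084493 to 141085806, between PCDHB1 and PCDHB2, and one of 1743 bp and 5.41-fold at 140948173 to 140949915, between PCDHAC1 and PCDHAC2; neither overlapped a record other than those of members. These 3 exceeded the median of 4.14-fold at member starts. For H3K79me2, 4 of 48 peaks lay within 1000 bp of a member start, and for H3K27me3, 3 of 26.

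The genes around the clusters mostly carried H3K4me3, and fewer than 50% of the nonclustered protocadherin genes did. The lists were fixed by name, and genes without a strand in the reference were read at either end, a rule that calls 67.9%, 9.1% and 50.9% of all protein-coding genes for H3K4me3, H3K27me3 and H3K79me2. Of the 24 protein-coding neighbours between the members or within 300 kb of them, 20 had H3K4me3, 17 had H3K79me2 and 0 had H3K27me3. Before alpha these were ANKHD1, EIF4EBP3 and their readthrough, SRA1, SLC35A4 with the overlapping LOC131768270, NDUFA2, IK, WDR55, HARS1, HARS2 and ZMAT2 with both marks, and APBB3 and CD14 with H3K4me3 alone. HARS1 and HARS2, which share 1 promoter peak, had 21.9-fold H3K4me3, and CD14 had 6.77-fold, the lowest of the 20. TAF7, DIAPH1, HDAC3, RELL2 and ARAP3 had both marks and FCHSD1 H3K4me3 alone. DIAPH1, the formin gene just past gamma, had 14.3-fold H3K4me3 and 5.40-fold H3K79me2 over 100% of the 5000 bp. The 4 neighbours without H3K4me3 were LOC112267855, TMCO6, DND1 and SLC25A2, a mitochondrial carrier gene between beta and gamma. Of the 12 nonclustered protocadherin genes, 5 had H3K4me3, 4 had H3K27me3 and 1 had H3K79me2. PCDH7 (21.3-fold), PCDH9 (19.6-fold), PCDH1 (15.7-fold) and PCDH19 (10.3-fold) had H3K4me3 over 96.9% to 100% of the window, and PCDH18 had 5.90-fold over 96.6%. H3K27me3 lay at PCDH15 (74.5%, 4.23-fold), PCDH20 (62.9%, 5.77-fold), PCDH17 (42.0%, 4.29-fold) and PCDH1 (33.4%, 5.85-fold), above every H3K27me3 fold in the clusters. PCDH9 was the one with H3K79me2, over 42.3%.

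Nearly all genes whose products act on the clusters or their proteins carried both active marks. Both marks are common: of all genes read at their own start 67.8% had H3K4me3 and 52.2% had H3K79me2. Among all genes with H3K4me3, 75.4% had H3K79me2 as well. All 11 genes of CTCF, cohesin and its loaders and release factors had H3K4me3 and H3K79me2. Ordered by covered share and then fold, MAU2 (100%, 22.5-fold), SMC3 (17.7-fold), CTCF (17.5-fold) and STAG1 (16.9-fold) came first for H3K4me3, and NIPBL (100%, 4.92-fold), MAU2, WAPL and SMC3 for H3K79me2. By fold alone RAD21, a cohesin subunit gene, was highest for H3K79me2, at 5.96-fold. Of 11 genes of DNA methylation and silencing, 10 had both marks, and UHRF1, which recruits the maintenance methyltransferase, had none at its start. In the same order EHMT2 (100%, 18.6-fold), SMCHD1 (18.3-fold), EHMT1 and CBX5 came first for H3K4me3, and DNMT1 (100%, 4.90-fold), SETDB1, EHMT1 and REST for H3K79me2. By fold alone DNMT3A (26.6-fold) was highest for H3K4me3 and TRIM28 (5.14-fold) for H3K79me2. SMCHD1 is known to silence clustered protocadherins. All 11 genes of partners and effectors had both marks, and by covered share and then fold PTK2B (100%, 18.9-fold), MARCKS, PTK2 and ADAM10 came first for H3K4me3 and NCKAP1 (100%, 5.53-fold), MARCKS, ADAM10 and WASF1 for H3K79me2. By fold alone CYFIP1 (25.2-fold) was highest for H3K4me3. H3K27me3 was called at 0 of the 11 genes of each list, and at only 6.49% of all genes, so lists of this size show little by it.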

How the data were processed

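ChIP-seq peaks of 3 marks in MCF10A, 1 library each, were analysed. The submitters' processing notes name Bowtie2 (2.3.1), MACS2 (2.1.1) and hg38. Per the deposited peak names, peaks were called per library at a p of 0.05, and H3K4me3 and H3K79me2 but not H3K27me3 carry the word broad, so lists differ in how peaks were joined. No source used here gives the control, duplicate handling or treatment of reads matching several places. The deposited fold enrichment is the authors' ratio over the caller's background, and the deposited −log10 p and −log10 q are the caller's. Depth is unknown, so no interval is given.

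Gene records came from RefSeq (GRCh38.p14), and strand from its promoter table, which covers 15813 of 19974 protein-coding genes; these are the background. A start was called for H3K4me3 or H3K27me3 with 25% of the window within 1000 bp covered, and for H3K79me2 with 25% of the 5000 bp inward, or of the whole record if shorter. Cover was computed with Python 3.11.15 and pandas 2.3.3 and tested on simulated intervals. No statistical test was made, since each mark has 1 library. The rule for named genes took, per family and mark, up to 4 called members by covered share and then fold, exceptions where 5 or fewer, first and last members, C-type members, members with several marks and those with the highest fold elsewhere in the record; from each context list up to 4 per mark and the exceptions; and all neighbours with a mark. Other members are named to account for all 53, and peaks away from starts, sequence words and comparisons among single members were chosen after their values were seen. The members and lists were chosen with earlier results of these data known. Alternatives changed the peak threshold, covered share and window.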

Additional observations from a re-analysis of the deposited data

How the results depend on the processing

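With peaks of −log10 q of at least 5, H3K4me3 was called at 6 beta members, covered 12.3% of the alpha and 6.19% of the gamma shared part, and H3K79me2 was called at 0 alpha and 0 gamma members. With fold of at least 5, H3K4me3 was called at 5 beta and 3 gamma members and covered 8.90% and 6.19% of the shared parts, and H3K79me2 at 0 and 0 members. With q of 0.05 or below, H3K79me2 was called at 1 alpha and 0 gamma members. Under each of these 3 thresholds the H3K79me2 cover of both shared parts and the H3K27me3 cover of the alpha shared part were 0%. With at least 1 bp covered, H3K4me3 was called at 15 alpha and 14 gamma members, H3K27me3 at 3 beta members, and H3K79me2 at 4 alpha, 1 beta and 4 gamma members. With 50% covered, H3K4me3 was called at 4 alpha, 5 beta and 3 gamma members. The window moved it too: 13 alpha and 14 gamma members within 500 bp, and 4 alpha, 6 beta and 3 gamma members within 2000 bp. H3K79me2 within 1000 bp either side of the start was called at 0 gamma members. Of the alternatives chosen after seeing the data, the 1000 bp after the start gave 14 alpha and 11 gamma members with H3K4me3, and either end of the record gave 22 gamma members. Over all 53 members H3K4me3 thus ranged from 12 with 50% covered (63.5% of all genes) to 42 with 1 bp (70.7% of all genes), since most peaks are narrow against the window. It was 39 within 500 bp, a share of 73.6% beside 67.8% of all genes. H3K27me3 remained at 0 of 53 under the alternatives tried except 1 bp covered. Of the 98 values recomputed, 40 moved and 58 did not, being within 1.5 times the reported one or 0 where it was 0. The 58 include many values that were 0 both times, mostly of H3K27me3, so their number says little about the stability of the other values. No paired analysis was possible because each mark has 1 library and no test was made. With 1 library per mark and unknown depth, a start without a peak is one where no peak was called, not one shown to lack the mark.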

Other observations

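The 6 protocadherin pseudogene records of the clusters, PCDHA14, PCDHB17P, PCDHB18P, PCDHB19P, PCDHGB8P and PCDHGB9P, had 0% of the window at their lower coordinate covered by each of the marks. A base covered by H3K4me3 was found there at 42 of the 53 protein-coding members, against 70.7% of all genes, and 26 members were called, against 67.8%. A peak within 1000 bp of a pseudogene record was found at 1 of the 6, PCDHB19P, and it is the H3K4me3 peak at the start of PCDHB15.

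Members' promoters were poor in CpG, except at C-type genes. The 300 bases around the start held a median of 7 CpG in the 47 members with a sequence (2 to 27), against 22 in 15813 protein-coding promoters. The 4 C-type promoters had a median of 20.5, gamma B had 11, beta had 7.5, PCDHA1 to PCDHA12 had 7 and gamma A had 5. The 24 members with a call for H3K4me3 had a median of 8 and the 23 without had 6. Over the 47 members, CpG count and the share of the window covered by H3K4me3 had a Pearson correlation of 0.283 and a Spearman correlation of 0.271. PCDHAC1 (27), PCDHGC3 (18) and PCDHAC2 (15) had a call, while PCDHGC4, with no H3K4me3 in its window, had 23. CpG content and the mark thus did not go together in every member.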
